A study of Mus musculus with 96 samples.

Results

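The genes described here encode the nuclear subunits of the mitochondrial respiratory chain and of ATP synthase, together with a few assembly proteins that share their names. Members were all genes whose symbol begins with Ndufa, Ndufb, Ndufc, Ndufs, Ndufv, Uqcr, Cox4, Cox5, Cox6, Cox7, Cox8 or Atp5 and that had expression values. Of 88 such symbols, 87 had values and Cox8c had none, so the family held 87 of the 20155 genes with values. By role, 36 encode subunits of complex I, 8 of complex III, 18 of complex IV and 15 of complex V, and 10 encode other proteins, of which 9 are assembly factors or assembly-like proteins.

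Complex I takes electrons from NADH, complex III passes them to cytochrome c, complex IV hands them to oxygen, and the protons pumped on the way drive ATP synthase, also called complex V. In pancreatic beta cells the ATP made in this way closes potassium channels and so couples glucose to insulin secretion. In hepatocytes that ATP pays for glucose production, and the chain takes up the electrons freed when fatty acids are burnt. Most subunits are made in the cytosol from nuclear genes, and the 13 subunits encoded in mitochondrial DNA are absent from the table and not analysed here.

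Male C57BL/6N mice, bought at 4 weeks of age, ate either a high-fat diet (HFD, Research Diets D12492, 60% fat) or a chow diet (CD, LabDiet 5001, 13.5% fat), and 4 mice per diet were taken at each of weeks 4, 8, 12, 16, 20 and 24 of feeding. Hand-picked islets and flash-frozen liver of the same 48 mice were profiled by poly(A) RNA sequencing, which gives 96 libraries in 24 groups. Age and time on the diet rose together, and since a high-fat diet of defined ingredients was set against a grain-based chow, fat and the other ingredients cannot be told apart. Values are FPKM, fragments per kilobase of transcript and per M mapped fragments, without read counts, so the depth behind each value is unknown.

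The tissue labels were checked against marker genes before the members were examined. Insulin, the product of Ins1 and Ins2, made up 53.7% to 75.1% of all FPKM in the 48 islet libraries (median 67.1%), and Alb was the most abundant hepatocyte marker in every liver group. Among the 48 liver libraries, 2 held more than 0.1% insulin, namely CD306 of week 12 with 0.556% and CD407 of week 16 with 0.382%. The main member counts that rest on them are given with and without them. Counts by complex, of lists and under other settings of the fit are given with both only. The early minus late effect in liver had 0 members called with and without either. Without CD306 or CD407 the counts given below were 22 and 19 higher (22 with both) for the mean liver effect, 10 and 11 higher (10 with both) and 8 lower, unchanged, for islets minus liver, and 8 higher and 75 lower, unchanged, for islets against liver in CD mice. Fold changes below are log2 of HFD over CD on log2(FPKM + 1) unless another comparison is named, and some are given with SE. A gene is called higher or lower where the adjusted p of limma over all genes tested is under 0.05.

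The members were abundant in both tissues, and most had the larger FPKM in liver. In CD islets the highest mean levels belonged to Cox8a of complex IV (276 FPKM), Atp5l, subunit g in the membrane part of ATP synthase (259.995 FPKM) and Atp5b, the catalytic beta subunit (241 FPKM). In CD liver they belonged to Cox6a1 of complex IV (731 FPKM), Atp5b (565 FPKM) and Ndufa4 (562 FPKM), a protein first assigned to complex I and since placed in complex IV. Summed over the 77 subunit genes of the 4 complexes, the CD libraries ranged from 5074 to 6917 FPKM in islets (median 5769) and from 10992 to 22195 FPKM in liver (median 14183). The ranges of the tissues did not overlap. As a share of the FPKM left after insulin was taken out, the same sums ranged from 1.31% to 2.04% in CD islets (median 1.67%) and from 1.82% to 3.30% in CD liver (median 2.31%).

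Between the tissues of CD mice, 75 of 84 members tested were lower and 8 were higher in islets than in liver, beside 28.5% lower and 66.9% higher among all genes tested. The median member differed by -1.18, and the median of all genes by 0.66, so that members lay -1.84 from it. Islet insulin bears on the size of this difference. With islet FPKM divided by the share left after Ins1 and Ins2, called scaling without insulin below, the member median turned to 0.28 (54 higher and 23 lower, beside 85.4% and 12.5% of all genes). That scaling leaves the FPKM totals of the tissues unequal. With every library brought to the same total after Ins1 and Ins2 were taken out, called equal totals below and added after seeing the data, it was -0.39 (20 higher and 56 lower, beside 79.5% and 17.4%). The median of all genes was 1.95 and 1.25 in these 2 scalings, and members lay -1.66 and -1.63 from it. Scaling by median ratios gave a member median of -1.93, 0.09 for all genes and a difference of -2.02. Each scaling multiplies a library by 1 factor, which shifts all its genes nearly alike. The difference between members and all genes could therefore hardly change with scaling. On FPKM without further scaling, most genes of each complex were lower in islets. These were 35 of 36 complex I genes, 8 of 8 complex III genes (with Uqcrc1, whose values near 0 are not read as absence), 12 of 15 complex IV genes and 15 of 15 complex V genes. Counts by complex are not given for the other scalings, under which the member counts moved. Also without further scaling, the 8 members higher in islets were 3 isoforms of complex IV, namely Cox6a2 (6.06), Cox4i2 (1.12) and Ndufa4l2 (0.81), and 5 of the other proteins, namely Cox7a2l (0.95), Atp5s (0.71), Ndufaf3 (0.54), Ndufaf7 (0.48) and Ndufaf5 (0.28). The largest differences in the other direction were those of Uqcrq (-2.68) and Cox5a (-2.61). Genes named in this paragraph only for the size of this difference were chosen after their values were seen.

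Some members were listed at or near 0. Uqcrc1 (gene 22273, chr9:108936648-108949641, plus strand), a core protein of complex III, was listed at 0 in 30 of 48 islet and 12 of 48 liver libraries, and its highest values were 1.08 FPKM in CD islets, 2.14 FPKM in HFD islets, 2.68 FPKM in CD liver and 4.27 FPKM in HFD liver. In week 12 liver its CD libraries held 0, 0, 0.45 and 1.76 FPKM and its HFD libraries 0.41, 1.31, 1.33 and 1.7 FPKM. These values overlap, and no fold is given for this gene. The table holds no counts, so a transcript that is absent and reads that were not assigned to the gene cannot be told apart here, and its values are not read as absence. The restricted complex IV isoforms Cox6b2, Cox7b2 and Cox8b stayed under the filter of 1 FPKM in 4 libraries in both tissues, as did Cox4i2 and Cox6a2 in liver. Cox7b2 was at 0 in 48 of 48 liver libraries.

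Over the 6 weeks, HFD islets held slightly more of many subunit transcripts, in all 4 complexes. Of 84 members tested with 24 mice per diet, 41 were higher (48.8%) and 2 were lower (2.38%), beside 16.6% higher and 22.0% lower among all 12378 genes tested. The median member differed by 0.07 and the median gene by -0.01, and 76 members lay above 0. The higher members took 17 of 36 genes in complex I, 4 of 8 in complex III, 9 of 15 in complex IV, 8 of 15 in complex V and 3 of the 10 other proteins. Within complex I, 17 of 29 accessory subunits and 0 of 7 core subunits were called by limma, and 1 core subunit, Ndufs7, had an unadjusted p under 0.05. With scaling by median ratios 46 members were higher and 2 lower, beside 23.6% and 23.1% of all genes. Scaled without insulin, the median of all genes moved to 0.15, which is more than 0.1, with 81 members higher and 1 lower, beside 63.6% and 5.94% of all genes. With equal totals the median of all genes was 0.06, with 73 members higher and 1 lower, beside 35.9% and 10.4%. The member median minus the median of all genes was 0.08, 0.08, 0.10 and 0.09 under these scalings, which could hardly change it. The 2 lower members were the isoforms Cox6a2 and Cox7a1.

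In liver the median member lay near the median gene over the 6 weeks, with single weeks on either side of it. Of 82 members tested, 22 were higher (26.8%) and 0 were lower by limma, beside 35.8% higher and 6.78% lower among 10879 genes, and 27 members (32.9%) and 49.5% of all genes had an unadjusted p under 0.05 in either direction. The median member differed by 0.07 and the median gene by 0.08, whereas scaling by median ratios turned the member median to -0.04 (6 higher, 12 lower, beside 19.0% and 19.5% of all genes) with -0.01 for all genes. Relative to the median gene, members thus lay at -0.01 in the first scaling and at -0.03 in the second, and at 0.05 without the filter. Higher members numbered 11 of 36 in complex I, 2 of 8 in complex III, 2 of 13 in complex IV, 3 of 15 in complex V and 4 of the 10 other proteins. The 6 that were also higher with median ratios were Ndufa10, Ndufs1, Uqcrc2, Cox7a1, Ndufaf7 and Atp5s. Without CD106, CD205, CD606, HFD217 or HFD313, 1 member was called lower in liver.

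**Figure D1:**
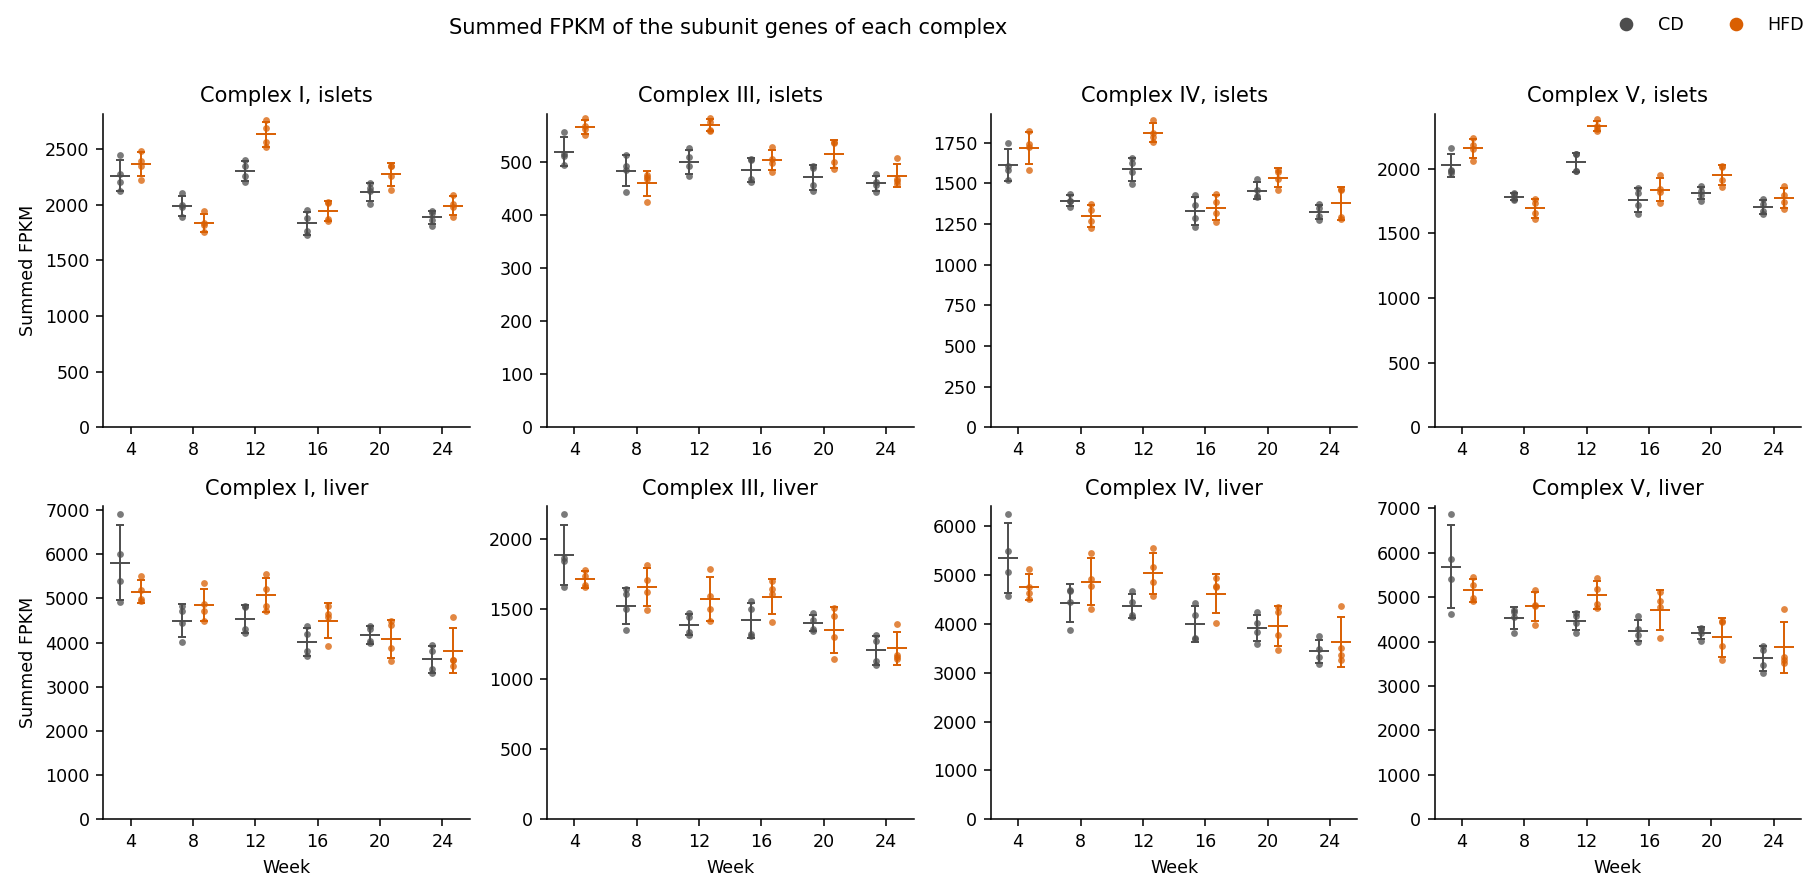
Summed FPKM of the subunit genes of complexes I, III, IV and V (y axis, from 0) by week of feeding (x axis) in islets and liver, with CD and HFD side by side. Points are libraries and bars are means ± SD of 4 mice. In islets of week 12 all 4 HFD libraries lie above all 4 CD libraries in each complex, and in liver this holds for complex V in week 12.

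Week by week, few members were called in islets when each week was fitted alone, and the shifts were small. Week 4 had 0 of 83 members called by limma, beside 0.00% of all genes, with 12 members and 7.38% of all genes at an unadjusted p under 0.05 and a member median of 0.08. In week 8, 0 of 82 were higher and 3 were lower, beside 0.602% and 4.67% of all genes, with 19 members (23.2%) and 28.9% of all genes at an unadjusted p under 0.05. The week 8 member median of -0.08 became 0.03 with median ratios and 0.03 without insulin and was -0.09 with equal totals, and the median of all genes was itself -0.11. In week 12, 4 of 83 were higher and 0 lower, beside 2.18% and 2.35%, with 35 members (42.2%) and 17.4% of all genes at an unadjusted p under 0.05 and 81 of 83 above 0. Week 16 had 2 higher and 1 lower of 83, beside 3.30% and 5.15%, week 20 had 2 higher and 0 lower of 83, beside 1.53% and 3.21%, and week 24 had 2 higher and 0 lower of 82, beside 6.57% and 1.73%. At an unadjusted p under 0.05 there were 9 members in week 16, 32 in week 20 and 15 in week 24 (10.8%, 38.6% and 18.3%), beside 23.2%, 25.7% and 23.3% of all genes. With all 12 islet groups in 1 fit, week 12 had 22 of 84 members higher and 0 lower, beside 5.41% and 4.44% of all genes.

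The islet member medians were 0.17 in week 12, 0.06 in week 16, 0.12 in week 20 and 0.08 in week 24, the last turning to -0.00 with median ratios. Without insulin the medians of weeks 12 and 16 were 0.66 and 0.41, with medians of 0.44 and 0.33 for all genes, and 81 and 76 members were then called higher, beside 74.1% and 71.4% of all genes. With equal totals these medians were 0.46 and 0.25, with 0.26 and 0.19 for all genes, and 72 and 56 members were called higher, beside 25.7% and 41.1%. Members minus all genes came to 0.11, 0.02, 0.17, 0.05, 0.14 and 0.01 over the 6 weeks, and this difference was above 0 in each week under all 4 scalings. Scaling could hardly change this difference, since it shifts all genes of a library nearly alike. In weeks 8 and 24 its sign rested on single mice, since it turned to -0.01 without CD207 and -0.02 without HFD212 in week 8, where it was also -0.02 without the filter, and to -0.04 without CD601, -0.03 without HFD611 and -0.00 without HFD617 in week 24. In week 16 it ran from 0.00 without HFD418 to 0.09 without HFD411. Single mice moved the counts as well. In week 8, 0 members were called without CD208, HFD211 or HFD213, 1 without CD203, CD205 or HFD212 and 10 without HFD217, of which 2 were higher and 8 lower. In week 12 the count was 8 without CD304, 2 without CD307, 1 without CD308 or HFD316 and 0 without HFD315. In week 16 it was 1 without CD403, HFD416 or HFD418. In week 20 it was 24 without HFD511 and 0 without any 1 of the other 7 mice. In week 24 it was 1 without CD601 or CD606.

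In liver, week 4 had 0 of 82 members called by limma, beside 0.0506% of all genes, with 1 member and 12.9% of all genes at an unadjusted p under 0.05 and a median of -0.12 where the median gene was at 0.09. Single mice moved that member median, from -0.19 without CD101 to -0.05 without CD104. Weeks 8 and 12 had 5 and 10 of 82 higher and 0 lower, beside 6.17% higher and 1.33% lower among all genes in week 8 and 9.42% and 1.22% in week 12. Week 16 had 1 of 82 higher and 0 lower, beside 6.74% and 0.682%, with 78 of 82 above 0 where the median gene was at 0.09. With median ratios 60 of 82 lay above 0 in that week. Weeks 20 and 24 had 0 of 81 called by limma, beside 2.47% and 0.837% in either direction, with 3 and 4 members at an unadjusted p under 0.05, beside 15.3% and 15.6% of all genes. The counts at an unadjusted p under 0.05 were 15, 33 and 19 in weeks 8, 12 and 16 (18.3%, 40.2% and 23.2%), beside 22.6%, 30.3% and 22.6% of all genes.

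Liver member medians were 0.13, 0.18, 0.17, -0.03 and 0.05 from week 8 to week 24, with the week 20 median turned to 0.04 without HFD517 and the week 24 median to -0.02 without HFD617 and to -0.03 with median ratios. Members minus all genes came to -0.21, 0.09, 0.07, 0.09, -0.10 and -0.01 from week 4 to week 24, of which the last turned to 0.04 without CD605, 0.01 without CD608, 0.02 without HFD611, 0.03 without HFD614 or HFD616 and 0.04 without the filter, and was -0.10 without HFD617. In week 4 this difference ran from -0.30 without CD101 to -0.14 without CD104, and in week 8 from 0.05 without CD208 to 0.12 without HFD217. In week 12 it ran from 0.04 without HFD318 to 0.12 without HFD315, and in week 16 from 0.04 without CD403 to 0.13 without CD405. In week 20 it ran from -0.15 without HFD516 to -0.003 without HFD517. The week 8 count of 5 was 3 without CD203 or CD208, 2 without HFD213, 1 without CD205 or HFD212 and 0 without CD207 or HFD211. In week 12 the count of 10 was 23 without CD304, 2 without HFD313, 1 without HFD315 and 0 without CD307, CD308 or HFD318, and it was 1 without CD306, the mouse whose liver library held insulin. In week 16 the count of 1 was 13 without HFD411, 2 without CD403, and 0 without HFD414, HFD416 or HFD418 or without CD407, the other mouse with insulin in liver. In week 24 it was 1 without HFD617.

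**Figure D2:**
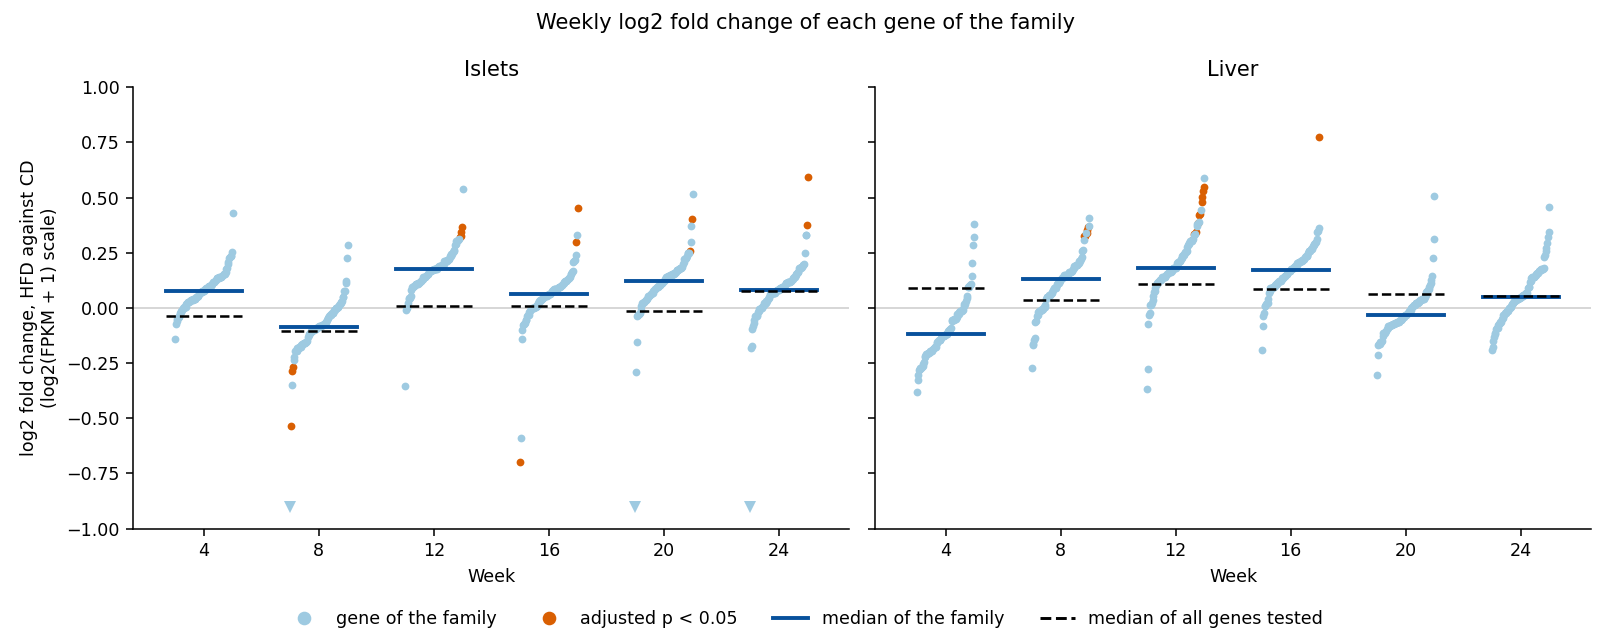
Log2 fold change of HFD over CD (y axis) of each member by week (x axis) in islets and liver. Points are genes, orange where the adjusted p is under 0.05, the solid line is the member median, the dashed line the median of all genes tested, and triangles mark values beyond the axis (Cox6a2 in islets). The islet member median is 0.17 in week 12 and -0.08 in week 8, the latter turning to 0.03 with median ratios and 0.03 without insulin and lying at -0.09 with equal totals.

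In complex I, accessory subunits led the islet calls. Ndufv3 (gene 78330, chr17:31520115-31531326, plus strand), a small accessory subunit of the NADH-oxidising arm, showed it most clearly. In week 12 its 4 CD islet libraries held 84.5, 88.1, 96.1 and 98.7 FPKM and its 4 HFD libraries 108, 112, 123 and 124 FPKM. All HFD libraries lay above all CD libraries, and the fold change was 0.34 (adjusted p = 0.017), which missed the threshold without CD308 (0.06), HFD315 (0.064) or HFD316 (0.072). In week 16 CD libraries held 76.5, 84.9, 87.25 and 98.25 FPKM and HFD libraries 101.51, 103, 108 and 114 FPKM. The groups again did not overlap (0.30, adjusted p = 0.023), and the call ended without CD401 (0.076), CD403 (0.056), HFD416 (0.053) or HFD418 (0.065). Over all weeks Ndufv3 rose by 0.18 (SE 0.03, adjusted p = 1.9e-05), with 75.8, 89.0 and 114 FPKM as the lowest, median and highest of 24 CD libraries and 75.6, 102 and 124 FPKM for HFD.

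Further accessory subunits of complex I had islet calls in week 12. Ndufc2, a membrane-arm subunit, held 62.7, 66.2, 75.65 and 77.1 FPKM in CD and 81.0, 85.2, 96.1 and 103 FPKM in HFD. The groups did not overlap (0.37, adjusted p = 0.023), and the call ended without CD304 (0.053), CD306 (0.07), HFD315 (0.061) or HFD318 (0.082). Ndufa3, another membrane-arm subunit, held 62.4, 63.1, 66.25 and 74.8 FPKM in CD and 78.1, 80.7, 82.3 and 94.2 FPKM in HFD. Every HFD library was above every CD library (0.33, adjusted p = 0.037), and the call ended without CD307 (0.083), CD308 (0.14), HFD315 (0.063) or HFD316 (0.19). Ndufa1, the fourth call of that week and outside the naming rule, held 78.3, 79.2, 83.4 and 93.98 FPKM in CD and 93.98, 106, 108 and 112 FPKM in HFD. Its highest CD library equalled its lowest HFD library (0.32, adjusted p = 0.034), and the call ended without CD306 (0.083), CD307 (0.077), CD308 (0.13), HFD313 (0.074), HFD315 (0.086) or HFD316 (0.13). Its HFD mean was above the CD mean in 2 of 6 islet weeks, and over all weeks Ndufa1 was not called (0.03, adjusted p = 0.48), with medians of 78.1 and 79.1 FPKM. Ndufa1 was chosen after its values were seen.

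Over the 6 weeks Ndufa12 (0.16, SE 0.03, adjusted p = 2.6e-05), Ndufa3 (0.16, SE 0.03, adjusted p = 6.3e-05), Ndufc2 (0.17, SE 0.04, adjusted p = 0.00022) and Ndufb11 (0.12, SE 0.03, adjusted p = 0.00032), all accessory subunits, rose in islets. Ndufa12 had a higher HFD than CD mean in 6 of 6 weeks and a median of 53.1 FPKM in CD against 59.7 FPKM in HFD. Its ranges overlapped, from 46.3 to 66.1 FPKM in CD and from 50.5 to 75.7 FPKM in HFD. Ndufs4, an accessory subunit needed for a stable NADH-oxidising arm, rose in islets by 0.08 (SE 0.03, adjusted p = 0.032), a call that missed the threshold without CD403, HFD316, HFD416, HFD517 or HFD518, with adjusted p up to 0.054. The core subunits Ndufs1 (-0.02, adjusted p = 0.63) and Ndufv1 (0.01, adjusted p = 0.83), which carry iron-sulfur clusters and the flavin of the complex, did not pass in islets.

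The week 8 calls in islets went the other way. Ndufs5 (-0.27, adjusted p = 0.034) and Atp5s (-0.28, adjusted p = 0.037) were among them and were chosen after their values were seen. Both calls were lost with median ratios and without insulin, as the count of 0 under both scalings shows, that of Atp5s was lost with equal totals too, and both survived the removal of 1 mouse in 1 of 8 cases, that of HFD217 (0.021 and 0.027). Without each of the other 7 mice (CD203, CD205, CD207, CD208, HFD211, HFD212 and HFD213) the adjusted p rose to at most 0.095 for Ndufs5 and 0.1 for Atp5s. Over the 6 weeks Ndufs5 was higher in islets (0.07, SE 0.03, adjusted p = 0.042), with the HFD mean above the CD mean in 5 of 6 weeks. That call held in 23 of 48 fits and was lost without CD103, CD104, CD203, CD205, CD207, CD304, CD308, CD401, CD507, CD601, CD605, HFD112, HFD113, HFD212, HFD217, HFD313, HFD315, HFD316, HFD416, HFD418, HFD516, HFD517, HFD518, HFD611 or HFD617, with adjusted p up to 0.07.

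In liver, the largest mean effect within complex I was that of a core subunit. The accessory subunit Ndufa10 had the lower adjusted p by limma (6.3e-05 against 0.00013). Ndufs1 (gene 227197, chr1:63143592-63176822, minus strand), the largest iron-sulfur subunit, held 31.9, 33.4, 34.3 and 35.5 FPKM in CD and 41.0, 41.5, 43.5 and 44.6 FPKM in HFD in week 8. The groups did not overlap (0.33, adjusted p = 0.019), and the call ended without CD205 (0.055), CD207 (0.061), HFD211 (0.063) or HFD212 (0.066). In week 12 CD libraries held 23.7, 23.9, 24.65 and 30.1 FPKM and HFD libraries 32.0, 35.2, 37.8 and 38.9 FPKM. CD304 was the high CD library, and the HFD libraries again lay above it (0.48, adjusted p = 0.023). That call held without CD304 (0.0062) and HFD316 (0.021) and was lost without CD306 (0.053), CD307 (0.081), CD308 (0.07), HFD313 (0.052), HFD315 (0.061) or HFD318 (0.068). Over all weeks Ndufs1 rose in liver by 0.28 (SE 0.06, adjusted p = 0.00013), with medians of 30.2 FPKM in CD and 36.5 FPKM in HFD.

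Ndufa10 (gene 67273, chr1:92439708-92473758, minus strand), an accessory subunit of the membrane arm, moved alongside it in liver. In week 12 its CD libraries held 83.1, 86.7, 88.0 and 88.1 FPKM and its HFD libraries 108, 112, 119 and 126 FPKM. Every HFD library was above every CD library (0.42, adjusted p = 0.016), and the call ended without CD307 (0.063), CD308 (0.05) or HFD318 (0.052). In week 8 it held 88.8, 89.0, 92.5 and 101 FPKM in CD and 109, 118, 122 and 127 FPKM in HFD. Again the groups did not overlap (0.35, adjusted p = 0.028), and the call held without CD203 (0.034) or HFD217 (0.014) and was lost without CD205 (0.07), CD207 (0.081), CD208 (0.066), HFD211 (0.084), HFD212 (0.076) or HFD213 (0.074). Over the 6 weeks Ndufa10 rose by 0.24 (SE 0.05, adjusted p = 6.3e-05), Ndufb3 by 0.19 (SE 0.05, adjusted p = 0.00069) and Ndufs4 by 0.13 (SE 0.04, adjusted p = 0.0031). The last 2 of these calls, but not that of Ndufa10, were lost with median ratios. Ndufv1 (0.09, adjusted p = 0.12) and Ndufs7 (-0.07, adjusted p = 0.23), which are core subunits, did not pass.

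Ndufb3, a small membrane-arm subunit, was also called in liver of week 8, with 57.6, 57.9, 58.4 and 65.4 FPKM in CD and 71.1, 71.2, 83.0 and 84.7 FPKM in HFD. The groups did not overlap, with CD208 the high CD library (0.37, adjusted p = 0.038), and the call held only without CD208 (0.046). Without CD203 (0.09), CD205 (0.092), CD207 (0.1), HFD211 (0.059), HFD212 (0.06), HFD213 (0.097) or HFD217 (0.056) it was lost.

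The liver calls of week 12 also took in the accessory subunits Ndufs5 and Ndufc1 and the assembly factor Ndufaf1, all named after their values were seen. Ndufs5 ranged from 99.95 to 121 FPKM in CD and from 133 to 168 FPKM in HFD (0.42, adjusted p = 0.034), Ndufc1 from 117 to 143 FPKM in CD and from 160 to 179 FPKM in HFD (0.35, adjusted p = 0.038), and Ndufaf1 from 12.85 to 18.6 FPKM in CD and from 20.0 to 22.8 FPKM in HFD (0.50, adjusted p = 0.028). No range overlapped. The call of Ndufs5 held only without CD304 (0.019) or HFD316 (0.031), that of Ndufc1 only without CD304 (0.019) and that of Ndufaf1 only without CD304 (0.0042) or HFD316 (0.043). Without CD306, CD307, CD308, HFD313, HFD315 or HFD318 all 3 were lost, as was that of Ndufc1 without HFD316 (0.056), with adjusted p up to 0.11 for Ndufs5 and Ndufc1 and 0.093 for Ndufaf1. Over the 6 weeks Ndufs5 rose in liver by 0.15 (SE 0.05, adjusted p = 0.0081), Ndufc1 by 0.13 (SE 0.04, adjusted p = 0.011) and Ndufaf1 by 0.14 (SE 0.05, adjusted p = 0.033), and these 3 calls were lost with median ratios. That of Ndufaf1 was also lost without week 4. It held in 37 of 48 fits, and was lost without CD103, CD104, CD307, CD308, CD407, CD505, CD507, CD601, HFD114, HFD511 or HFD611, with adjusted p up to 0.057.

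In complex III, 4 of 8 genes were called higher in islets and 2 of 8 in liver over the 6 weeks, beside 16.6% and 35.8% of all genes. In liver, Uqcrc2 (gene 67003, chr7:120635189-120659523, plus strand), a core protein of the matrix side, held 107, 110.2, 116 and 117 FPKM in CD and 139.7, 140.4, 140.8 and 142 FPKM in HFD in week 8. The HFD libraries formed a tight group above all CD libraries (0.32, adjusted p = 0.017), and the call ended without CD207 (0.054), HFD211 (0.057) or HFD212 (0.058). In week 12 CD libraries held 93.6, 99.7, 103 and 108 FPKM and HFD libraries 126, 127, 136 and 140.1 FPKM. There was no overlap (0.39, adjusted p = 0.022), and the call ended without CD306 (0.051), CD307 (0.076), CD308 (0.06), HFD315 (0.051) or HFD318 (0.066). Over all weeks Uqcrc2 rose by 0.21 in liver (SE 0.04, adjusted p = 4.4e-05) and by 0.07 in islets (SE 0.03, adjusted p = 0.026).

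Uqcrfs1, the Rieske iron-sulfur protein that takes electrons from ubiquinol, rose by 0.10 in islets (SE 0.02, adjusted p = 0.00013) and by 0.13 in liver (SE 0.04, adjusted p = 0.0059). In islets its HFD mean was above the CD mean in 6 of 6 weeks, with medians of 43.1 and 45.8 FPKM. The liver call was lost with median ratios. Uqcrh, the hinge protein, and Uqcrb, which binds near the quinone pocket, were also among the 4 islet calls of complex III, with 0.12 (adjusted p = 0.0011) and 0.08 (adjusted p = 0.023).

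Complex IV held the largest changes of the family, and they fell on isoforms known from other tissues. Cox6a2 (gene 12862, chr7:128201751-128220837, minus strand), known as the heart and skeletal muscle form of subunit VIa, was listed with high FPKM in islets and near 0 in liver, where its highest value was 0.30 FPKM. In the table this gene has 3 transcripts, the longest of 3398 bases, and a long span that shares neither start nor end with RefSeq. Whether overlapping transcripts add to its FPKM was not tested, and this holds for every level, fold change and share of Cox6a2 given here. In week 8 its CD islet libraries held 93.3, 107, 116 and 119.56 FPKM and its HFD libraries 20.45, 26.2, 50.9 and 65.7 FPKM. All HFD libraries lay below all CD libraries, yet the difference of -1.54 was not called in that week alone (adjusted p = 0.068). In week 20 CD libraries held 77.2, 78.9, 116 and 127 FPKM and HFD libraries 12.3, 15.9, 67.9 and 85.3 FPKM, and in week 24 CD held 31.0, 39.8, 45.1 and 45.3 FPKM and HFD 11.6, 12.6, 17.8 and 45.3 FPKM. These groups overlap through 1 or a few HFD libraries, and neither week was called (-1.53, adjusted p = 0.18, and -1.06, adjusted p = 0.22).

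In the other weeks the Cox6a2 ranges overlapped, with 68.4 to 105 FPKM in CD against 75.2 to 132 in HFD in week 4, 34.4 to 104 against 41.2 to 85.3 in week 12 and 35.6 to 64.0 against 19.4 to 66.0 in week 16. Over all weeks Cox6a2 fell by 0.75 (SE 0.19, adjusted p = 0.0017), and it remained called with any 1 mouse removed (48 of 48 fits). The lowest, median and highest of 24 libraries were 31.0, 74.1 and 127 FPKM in CD and 11.6, 48.1 and 132 FPKM in HFD. As a share of Cox6a2 and Cox6a1 together, Cox6a2 made up 13.6% to 41.1% in CD islets (median 26.5%) and 4.76% to 33.4% in HFD islets (median 18.7%), with the same reservation about its FPKM.

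Muscle markers were listed at low FPKM in islets. Their 4 genes together averaged between 0.91 and 4.88 FPKM in every islet group, with Acta1 the most abundant and Myh4 at 0 in all 4 libraries of most groups. Without counts, these values are not read as absence. Markers of other endocrine cells did move with the diet in the same libraries, where 16.6% of all genes were higher and 22.0% lower over the 6 weeks. Here and below, the gene said to lead a marker list is its most abundant one by FPKM, whatever its change. The alpha cell list had 0 higher and 5 lower of 5 (median -1.03), led by Gcg, with a mean sum of 13582 FPKM in CD and 5485 FPKM in HFD in week 12 and of 10923.5 and 1709 FPKM in week 24. The delta cell list had 3 lower of 3 (median -1.19), led by Sst, with 2585 FPKM in CD and 421 FPKM in HFD in week 24, and Ppy of PP cells was lower (-1.18). Beta cell markers gave 5 higher and 2 lower of 10 (median 0.13), led by Ins2. Their part in the results for the members was not tested, and in bulk tissue fewer cells of a type and less RNA per cell cannot be told apart.

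Cox7a1 (gene 12865, chr7:30184171-30186030, plus strand), the heart and muscle form of subunit VIIa, was scarce in both tissues and differed in opposite directions. In islets of week 16 its CD libraries held 0.99, 1.19, 1.43 and 2.05 FPKM and its HFD libraries 0.24, 0.24, 0.48 and 1.06 FPKM. The highest HFD library, that of HFD411, overlapped the lowest CD library (-0.70, adjusted p = 0.036), and the call held without CD401 (0.031) or HFD411 (0.0022) only, with adjusted p between 0.067 and 0.088 without CD403, CD405, CD407, HFD414, HFD416 or HFD418. In liver of week 16 CD libraries held 2.17, 2.39, 3.26 and 3.46 FPKM and HFD libraries 3.85, 5.96, 6.14 and 6.27 FPKM. Here all HFD libraries were above all CD libraries (0.78, adjusted p = 0.019), and the call ended without CD407 (0.059), HFD414 (0.065), HFD416 (0.058) or HFD418 (0.064). Week 12 in liver gave 0.53 (adjusted p = 0.047), held only without CD304 (0.045) or HFD316 (0.0075) and lost without CD306 (0.068), CD307 (0.12), CD308 (0.12), HFD313 (0.094), HFD315 (0.12) or HFD318 (0.11).

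Over all weeks Cox7a1 rose by 0.34 in liver (SE 0.10, adjusted p = 0.0074) and fell by 0.24 in islets (SE 0.09, adjusted p = 0.041). The islet call, and with it the count of 2 lower members, which became 1, was lost in the fits without CD103, CD203, CD307, CD407, CD507, CD606, CD608, HFD113, HFD114, HFD211, HFD315, HFD316, HFD414, HFD416, HFD518, HFD614 or HFD616, with adjusted p up to 0.069. It was lost as well without insulin, with equal totals, without the filter and without week 8.

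Ndufa4l2 (gene 407790, chr10:127514939-127517154, plus strand), the low-oxygen paralogue of Ndufa4, was higher late in HFD islets. In week 24 its CD libraries held 3.48, 3.96, 4.27 and 4.38 FPKM and its HFD libraries 5.53, 6.17, 6.59 and 8.15 FPKM. The groups were well apart (0.59, adjusted p = 0.0028), and it remained called with any 1 mouse removed (8 of 8 fits). In week 20 it ranged from 3.69 to 4.56 FPKM in CD and from 4.85 to 6.77 FPKM in HFD, without overlap (0.41, adjusted p = 0.043), a call that held only without HFD511 (0.0081) and had adjusted p between 0.064 and 0.12 without CD501, CD502, CD505, CD507, HFD516, HFD517 or HFD518. Over all weeks Ndufa4l2 rose by 0.23 (SE 0.05, adjusted p = 0.00014).

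Ndufa4 itself rose in islets by 0.13 (SE 0.02, adjusted p = 3.9e-05). Cox7b, a small subunit at the surface of the complex, rose by 0.15 (SE 0.03, adjusted p = 2.7e-05), Cox8a, among the smallest subunits, by 0.08 (SE 0.03, adjusted p = 0.012), and Cox4i2, the lung isoform of subunit IV, by 0.20 (SE 0.05, adjusted p = 0.0029), from a median of 1.40 FPKM in CD to 1.74 FPKM in HFD. The common isoform Cox4i1 differed by 0.06 (adjusted p = 0.035) and Cox6a1 by 0.08 (adjusted p = 0.036), calls that held in only 34 and 33 of 48 fits. That of Cox4i1 was lost without CD103, CD104, CD106, CD207, CD401, CD507, CD605, HFD112, HFD118, HFD212, HFD315, HFD414, HFD517 or HFD518, with adjusted p up to 0.058. That of Cox6a1 was lost without CD104, CD106, CD207, CD308, CD401, CD507, CD605, HFD112, HFD315, HFD416, HFD418, HFD517, HFD518, HFD611 or HFD617, with adjusted p up to 0.063. Cox5a (0.06, adjusted p = 0.25) and Cox5b (0.06, adjusted p = 0.1), which lie on the matrix side of the complex, and Cox7a2 (0.02, adjusted p = 0.68) did not pass.

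In liver few complex IV genes passed. Cox7a2, the common form of subunit VIIa, differed by 0.10 (SE 0.04, adjusted p = 0.026), which turned to -0.01 with median ratios. Cox4i1 (0.09, adjusted p = 0.15), Cox5a (0.06, adjusted p = 0.29), Cox5b (0.08, adjusted p = 0.16), Cox6a1 (0.11, adjusted p = 0.067), Cox7b (0.11, adjusted p = 0.12) and Ndufa4 (-0.01, adjusted p = 0.88) did not pass over the 6 weeks. In week 12 all 13 complex IV genes tested lay above 0 (median 0.24, where the median of all genes was 0.11), and 2 of them were called, Cox7a1 and Cox6b1, beside 9.42% of all genes. Cox6b1, which helps join complex IV monomers into dimers, ranged from 346 to 381 FPKM in CD and from 430.3 to 511 FPKM in HFD. There was no overlap (0.34, adjusted p = 0.038), and the call held only without CD304 (0.03) or HFD316 (0.037), with adjusted p between 0.06 and 0.11 without CD306, CD307, CD308, HFD313, HFD315 or HFD318.

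Isoform shares were compared by an exact permutation test, two-sided, over 8 pairs in islets and 7 in liver. Each was the share of a tissue-restricted isoform within its pair, except for Atp5g1. That gene, abundant in both tissues, was set against Atp5g2 and Atp5g3 together. With 4 mice against 4 the smallest exact p is 0.0286, and after adjustment the smallest p was 0.249 in islets and 0.218 in liver, so this design could hardly pass the threshold. It gave 0 passes in 48 islet and 42 liver tests by the exact test, of which 4 and 5 had an unadjusted p under 0.05. In islets of week 8 the Cox6a2 share was 32.7%, 34.5%, 37.4% and 41.1% in CD and 9.94%, 12.7%, 20.6% and 24.8% in HFD. The groups did not overlap (exact p = 0.0286, adjusted p = 0.249). The Cox7a1 share in the same week ranged from 1.58% to 2.88% in CD and from 0.518% to 1.18% in HFD, and the Ndufa4l2 share in week 24 from 3.07% to 4.22% in CD and from 4.71% to 6.66% in HFD. In liver the Atp5g1 share of the 3 genes for the membrane ring of ATP synthase ranged from 30.5% to 32.8% in CD and from 27.2% to 30.1% in HFD in week 4, and from 26.6% to 28.7% and from 22.0% to 25.4% in week 8. The Cox7a1 share in liver was higher in HFD in week 16, from 1.53% to 2.01% in CD and from 2.38% to 3.57% in HFD. The rest were shares of scarce isoforms, Cox4i2 in liver of week 16 (higher in HFD) and Cox6b2 in islets of week 16 and liver of week 24 (lower in HFD), all under 1%. Each of these pairs of ranges was free of overlap.

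In complex V, 8 of 15 genes were called higher in islets, beside 16.6% of all genes, with 3 of 5 in the catalytic head and 5 of 10 in the membrane part and stalks. Among the 8 was Atp5j2, a subunit of the membrane part (0.11, adjusted p = 0.0016), whose long span in the table shares neither start nor end with RefSeq. Whether overlapping transcripts add to its FPKM, and so to the sums of complex V, was not tested. Atp5f1 (gene 11950, chr3:105942678-105960248, minus strand, now called Atp5pb), the b subunit of the outer stalk, had all 4 HFD libraries above all 4 CD libraries in 4 of 6 weeks. It ranged in week 4 from 59.1 to 64.0 FPKM in CD and from 67.5 to 70.0 FPKM in HFD, and in week 24 from 52.7 to 58.3 FPKM in CD and from 61.6 to 65.2 FPKM in HFD. The difference passed in no week alone by limma, with 2 of 6 weeks at an unadjusted p under 0.05, and over all weeks Atp5f1 rose by 0.12 (SE 0.02, adjusted p = 2.5e-05). Atp5h, subunit d of the same stalk, rose by 0.10 (SE 0.02, adjusted p = 0.00055), Atp5c1, the rotating gamma subunit, by 0.07 (SE 0.02, adjusted p = 0.01), and Atp5a1, the alpha subunit of the catalytic head, by 0.06 (SE 0.02, adjusted p = 0.019). Atp5l rose by 0.09 (SE 0.03, adjusted p = 0.027). The catalytic Atp5b (0.05, adjusted p = 0.062) and the ring genes Atp5g1 (0.04, adjusted p = 0.39), Atp5g2 (0.08, adjusted p = 0.11) and Atp5g3 (0.04, adjusted p = 0.28) did not pass.

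The only complex V call of a single islet week was Atp5j, a coupling factor of the stalk, chosen after its values were seen. In week 20 it ranged from 77.2 to 81.9 FPKM in CD and held 87.1, 95.7, 95.8 and 103 FPKM in HFD. All HFD libraries were above all CD libraries (0.26, adjusted p = 0.049), and the call held only without HFD511 (0.0085), with adjusted p between 0.078 and 0.14 without CD501, CD502, CD505, CD507, HFD516, HFD517 or HFD518.

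In liver, 3 of 15 genes of complex V were called higher over the 6 weeks, beside 35.8% of all genes, and 2 of them, Atp5a1 and Atp5b, were among the 5 genes of the catalytic head. Atp5a1 held 301, 308, 310.3 and 320.5 FPKM in CD and 350.2, 391, 397 and 400.2 FPKM in HFD in week 12. All HFD libraries were above all CD libraries, as in 4 of 6 weeks, and week 12 was called (0.31, adjusted p = 0.037), but only with all mice in or without CD304 (0.036) or HFD316 (0.026). Without CD306 (0.069), CD307 (0.12), CD308 (0.089), HFD313 (0.077), HFD315 (0.1) or HFD318 (0.1) the call was lost. Over all weeks Atp5a1 rose by 0.18 (SE 0.04, adjusted p = 0.00022), Atp5b by 0.14 (SE 0.04, adjusted p = 0.0082) and Atp5f1 by 0.15 (SE 0.04, adjusted p = 0.0047), and these 3 calls were lost with median ratios. Atp5c1 (0.05, adjusted p = 0.29) and Atp5o, the subunit that joins the stalk to the head (-0.05, adjusted p = 0.36), did not pass.

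Summed by complex, with Cox6a2 and Atp5j2 kept in the sums, week 12 was the week in which islets differed without overlap. Complex I held 2205, 2259, 2352 and 2401 FPKM in CD and 2524, 2562, 2689 and 2764 FPKM in HFD. Complex III held 474, 493, 510.3 and 527 FPKM in CD and 559, 561, 577 and 583 FPKM in HFD, and complex IV 1496, 1571, 1628 and 1656 FPKM in CD and 1756, 1789, 1813 and 1893 FPKM in HFD. Complex V held 1985, 1985, 2111 and 2114 FPKM in CD and 2292, 2308, 2329 and 2383 FPKM in HFD. All HFD libraries lay above all CD libraries in each complex, and each HFD mean was above the CD mean in 5 of 6 weeks, all but week 8. In the same week insulin took 53.7% to 59.2% of FPKM in CD and 67.3% to 71.4% in HFD. The acinar markers, led by Amy2a5, summed to a mean of 107224 FPKM in CD and 32516 FPKM in HFD, and over all weeks 1 of 14 was higher and 5 lower (median -0.47). Their part in the week 12 sums was not tested. In liver, complex V in week 12 was the only sum without overlap, from 4203 to 4649.88 FPKM in CD and from 4754 to 5422 FPKM in HFD, and it remained so without CD306, the highest of its CD libraries. Without CD306 complex IV was free of overlap in that week as well, with 4439 FPKM as the highest CD and 4573 FPKM as the lowest HFD library, and so was the sum over complexes I, III, IV and V, with 15295 and 15461 FPKM. In week 16 the sums overlapped with and without CD407.

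The other proteins of the family held the largest islet rise in the mean over the 6 weeks. Cox7a2l (gene 20463, chr17:83501917-83514333, minus strand) encodes the protein known as SCAF1, which has been described as a link between complexes III and IV in respiratory supercomplexes. Whether it has this role in C57BL/6N mice was not tested. In islets of week 16 its CD libraries held 175, 180.3, 183 and 183 FPKM and its HFD libraries 233, 246, 250.3 and 261 FPKM. Both groups were tight and far apart (0.45, adjusted p = 0.00018), and it remained called with any 1 mouse removed (8 of 8 fits). Week 12 gave 176 to 269 FPKM in CD and 256 to 275 FPKM in HFD, and week 20 gave 144 to 183 and 173 to 276 FPKM. These weeks overlapped and were not called (0.22, adjusted p = 0.27, and 0.51, adjusted p = 0.07), and neither were week 8 (0.29, adjusted p = 0.087), week 24 (0.33, adjusted p = 0.08) and week 4 (-0.07, adjusted p = 0.83). Over all weeks Cox7a2l rose in islets by 0.29 (SE 0.05, adjusted p = 5.5e-06), with 139, 177 and 269 FPKM as the lowest, median and highest in CD and 143, 228 and 276 FPKM in HFD. In liver it differed by -0.03 (adjusted p = 0.62), with medians of 87.1 and 89.2 FPKM.

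Of the assembly proteins for complex I, Ndufaf5 rose in islets by 0.16 (SE 0.05, adjusted p = 0.0062) and Ndufaf2 by 0.12 (SE 0.04, adjusted p = 0.0075), both named as the other calls of this group after their values were seen. In week 24 Ndufaf5 ranged from 3.30 to 4.32 FPKM in CD and from 4.64 to 5.55 FPKM in HFD. The groups did not overlap (0.38, adjusted p = 0.025), and the call ended without CD601 (0.061), CD606 (0.063), CD608 (0.061) or HFD617 (0.077). Ndufaf6 differed by -0.04 in islets (adjusted p = 0.57). In liver Ndufaf7, a methyltransferase needed for complex I assembly, rose by 0.25 (SE 0.05, adjusted p = 7.2e-05) and Atp5s, a coupling factor of ATP synthase, by 0.23 (SE 0.05, adjusted p = 0.00058), while Atp5sl, an assembly factor of complex I, differed by -0.16 (adjusted p = 0.083). In week 12 Ndufaf7 ranged in liver from 3.39 to 6.08 FPKM in CD and from 6.32 to 8.37 FPKM in HFD, with no overlap (0.55, adjusted p = 0.048). That call held only without CD304 (0.0096), with adjusted p between 0.068 and 0.14 without CD306, CD307, CD308, HFD313, HFD315, HFD316 or HFD318.

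The last call of liver week 8 was Ndufaf2, chosen after its values were seen, with 12.2, 14.1, 14.1 and 14.2 FPKM in CD and 15.3, 17.4, 18.6 and 19.0 FPKM in HFD. All HFD libraries were above all CD libraries (0.34, adjusted p = 0.048), and the call held only without HFD212 (0.04), with adjusted p between 0.061 and 0.13 without CD203, CD205, CD207, CD208, HFD211, HFD213 or HFD217.

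Several calls of single weeks also ended under another setting. Median ratios ended those of Ndufa1 (islets, week 12), Ndufaf5 (islets, week 24), Ndufb3 and Ndufaf2 (liver, week 8) and Atp5a1, Cox6b1, Cox7a1, Ndufa10, Ndufaf7, Ndufc1, Ndufs5 and Uqcrc2 (liver, week 12). Scaling without insulin ended those of Atp5j and Ndufa4l2 in islets of week 20, and equal totals that of Atp5j. Dropping the filter ended the calls of Ndufs5 and Atp5s (islets, week 8), Ndufa1, Ndufa3 and Ndufc2 (islets, week 12), Atp5j and Ndufa4l2 (islets, week 20), Ndufb3 and Ndufaf2 (liver, week 8) and Atp5a1, Cox6b1, Cox7a1, Ndufaf7, Ndufc1 and Ndufs5 (liver, week 12). Without trend or robust variances, the calls of Ndufa1, Ndufa3, Ndufc2 and Ndufv3 (islets, week 12), Atp5j (islets, week 20), Ndufaf2 (liver, week 8) and Ndufaf7 (liver, week 12) ended. Fitting all 12 groups at once ended those of Cox7a1 (islets, week 16, and liver, week 12) and Ndufa10, Ndufs1 and Ndufaf2 (liver, week 8), and a pseudocount of 0.1 that of Cox7a1 in islets of week 16. Apart from a minimum fold, none of the settings tried ended the week 16 call of Cox7a2l or the week 24 call of Ndufa4l2 in islets.

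Between tissues, the effect of the diet was tested directly. Of 82 members tested in both tissues, 10 had a higher and 8 a lower HFD effect in islets than in liver, beside 6.80% higher and 34.0% lower among all genes, whose median was -0.09 against -0.00 for the members. Scaling moved this comparison, with 27 higher and 3 lower with median ratios (member median 0.11), beside 19.5% and 19.0% of all genes, 45 higher and 1 lower without insulin (0.18), beside 27.7% and 9.36%, and 13 higher and 3 lower with equal totals (0.04), beside 8.49% and 20.8%. The widest gap toward islets was that of Cox7a2l (0.31, adjusted p = 3.4e-05), followed by Ndufv3 (0.19, adjusted p = 0.01), Ndufa12 (0.16, adjusted p = 0.006), Ndufb11 (0.16, adjusted p = 0.0061) and Ndufa4 (0.14, adjusted p = 0.0036). Toward liver it was that of Cox7a1 (-0.58, adjusted p = 0.00076), followed by Ndufs1 (-0.30, adjusted p = 8.7e-05), Atp5s (-0.22, adjusted p = 0.0023), Ndufaf7 (-0.19, adjusted p = 0.0076) and Ndufa10 (-0.18, adjusted p = 0.0048). The calls of Ndufs1, Atp5s and Ndufaf7 were lost without insulin, those of Ndufa10 and Ndufaf7 with median ratios and with equal totals, and Ndufa10 turned to 0.01 without insulin.

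**Figure D3:**
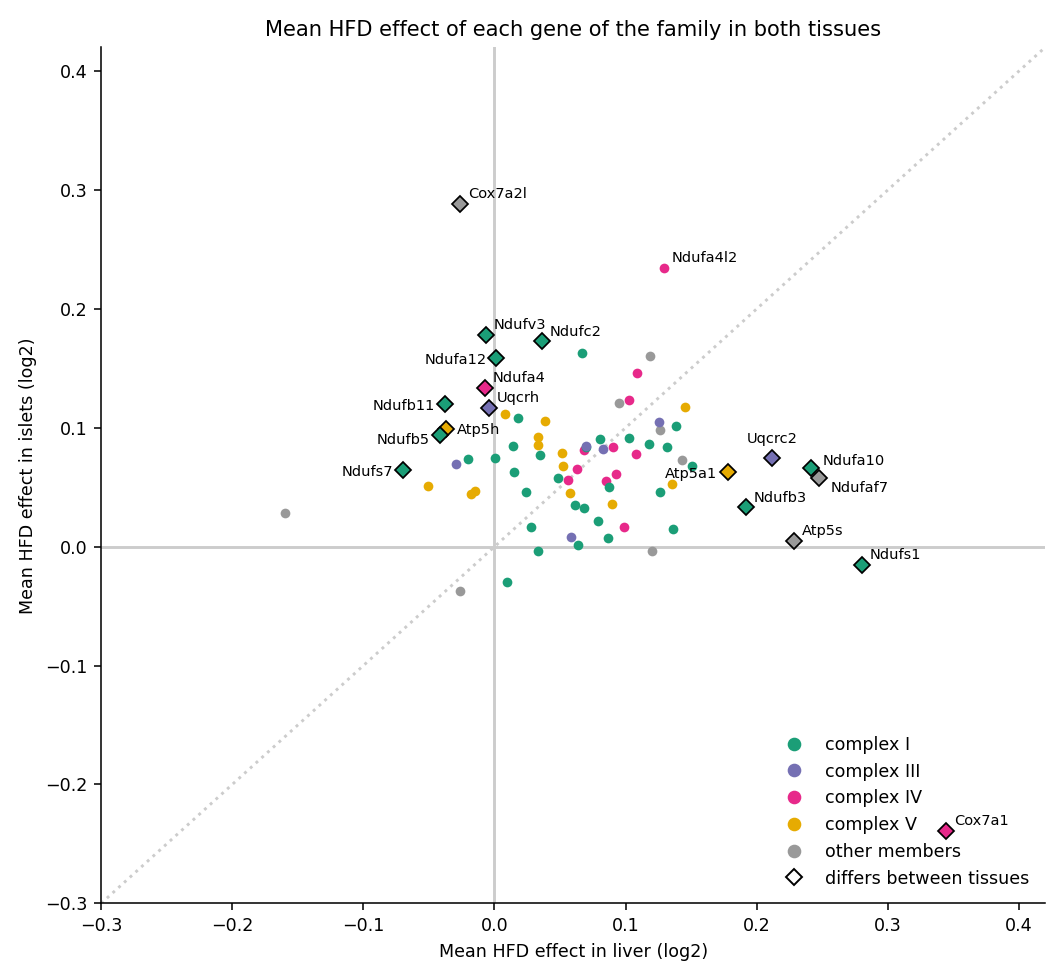
Mean HFD effect over the 6 weeks in liver (x axis, log2) against that in islets (y axis, log2) for the members tested in both tissues. Points are genes, and diamonds mark members whose effect differed between tissues at an adjusted p under 0.05. Cox7a2l lies at 0.29 in islets and -0.03 in liver and Cox7a1 at -0.24 and 0.34, and Uqcrc1 is not drawn.

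Early weeks (4, 8 and 12) were compared with late weeks (16, 20 and 24) in the same way. In islets 0 of 84 members had a higher and 1 a lower effect early, beside 0.969% and 2.19% of all genes, with 10 members (11.9%) and 18.5% of all genes at an unadjusted p under 0.05. The member was Ndufa4l2 (-0.36, adjusted p = 0.027), whose call was lost with median ratios, without insulin and with equal totals. The islet count was 3 without CD304 or HFD511 and 2 without HFD614. In liver 0 of 82 members differed by limma, beside 0.175% of all genes in either direction, with 1 member and 7.91% of all genes at an unadjusted p under 0.05.

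Genes that work beside the family were examined as lists. The counts of these lists over the 6 weeks stand beside 16.6% higher and 22.0% lower among all genes in islets and 35.8% and 6.78% in liver. Of complex II, the entry point for succinate, 2 of 4 genes were higher in islets (median 0.06) and 2 of 4 in liver (median 0.11), with Sdhd at 0.12 in islets and Sdha at 0.24 in liver. Of cytochrome c and c1, 2 of 2 tested were higher in islets and 1 of 2 in liver. Cycs, the electron carrier between complexes III and IV, rose by 0.17 in islets (adjusted p = 0.0019) and by 0.28 in liver (adjusted p = 0.00077). Other assembly factors gave 13 higher and 1 lower of 40 in islets (median 0.05) and 19 higher and 0 lower of 39 in liver (median 0.10). Coa6, which helps deliver copper to complex IV, rose by 0.22 in islets (adjusted p = 3.6e-05). Foxred1, an assembly factor of complex I, fell by 0.12 in islets and rose by 0.13 in liver.

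The remaining ATP synthase proteins gave 2 of 3 higher in each tissue (medians 0.09 and 0.11). Regulators of mitochondrial genes gave 2 higher and 1 lower of 10 in islets (median 0.02) and 1 higher and 0 lower of 12 in liver (median -0.00). Tfb1m, a factor for mitochondrial ribosomal RNA, rose by 0.11 in islets and by 0.15 in liver, Tfam, which packs mitochondrial DNA, by 0.09 in islets, and Nrf1, which drives many nuclear subunit genes, fell by 0.10 in islets (adjusted p = 0.019). Gabpa, an ETS factor, (0.01 in islets, 0.09 in liver) and Yy1 (-0.06 and 0.00) did not pass. The carriers and uncouplers gave 0 of 6 in islets by limma, with 1 at an unadjusted p under 0.05 (median 0.01), and 3 higher and 0 lower of 6 in liver (median 0.18), namely Ucp2 (0.80), Slc25a4 (0.34) and Slc25a5 (0.28).

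Ribosomal protein genes served for comparison, beside the same shares of all genes. Of the mitochondrial ones, 29 of 76 were higher and 0 lower in islets (median 0.06), and 27 were higher and 1 lower of 76 in liver (median 0.08), a share near that of all genes. Of the cytosolic ones, 30 were higher and 1 lower of 90 in islets (median 0.06), and 6 were higher and 34 lower of 87 in liver (median -0.08). Their effect was higher in islets than in liver for 53 and lower for 4 of 87 cytosolic genes, and for 4 and 10 of 76 mitochondrial genes, beside 6.80% and 34.0% of all genes.

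Markers of further cell types were measured beside the members in islets over the 6 weeks, with 16.6% higher and 22.0% lower among all genes. Red blood cell markers, led by Hbb-bs, gave 5 higher of 5 (median 0.75), with mean sums of 207 FPKM in CD and 491 FPKM in HFD in week 12. Macrophage markers gave 2 higher and 0 lower of 5 (median 0.17), endothelial 3 and 1 of 5 (0.10), stellate and fibroblast 1 and 1 of 6 (-0.25), ductal 0 and 1 of 4 (-0.07), B and T cell 0 and 1 of 4 (-0.44), hepatocyte 1 and 2 of 7 (0.24) and cholangiocyte 0 and 1 of 3 (-0.07). The muscle gene tested gave 0 of 1 by limma, and 0 at an unadjusted p under 0.05, and no fat marker passed the filter in islets. The part of these cell types in the members' results was not tested.

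In liver, with 35.8% higher and 6.78% lower among all genes, stellate and fibroblast markers gave 6 higher of 6 (median 0.87), led by Dcn, with mean sums of 62.2 FPKM in CD and 108 FPKM in HFD in week 12. Macrophage markers gave 5 higher of 6 (0.57), led by C1qa, with 68.4 and 128 FPKM in that week. Hepatocyte markers gave 0 higher and 4 lower of 9 (-0.10), led by Alb. The fat list gave 1 higher of 1 tested, Cidea (3.59), while Ucp1 was at or near 0. Beta cell markers gave 0 higher and 3 lower of 4 (-1.36), with mean sums of 1110 FPKM in CD and 117 FPKM in HFD in week 12, the week of CD306. Alpha gave 0 and 2 of 3 (-0.44), delta 1 and 0 of 3 (0.05), ductal 1 and 0 of 4 (-0.04) and endothelial 1 and 0 of 5 (0.17). By limma PP gave 0 of 1, acinar 0 of 11, red blood cell 0 of 5, B and T cell 0 of 1 and cholangiocyte 0 of 1, with 0 at an unadjusted p under 0.05. The muscle markers were at or near 0. The part of these cell types in the liver results was not tested.

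Promoters were searched because many members moved a little in the same direction. RefSeq promoters of build GRCm38.p6, the 250 bases before each gene start, were matched for 73 of 87 members (79 promoters) and for 15784 genes in all (19524 promoters). The motifs were GCGCATGC for NRF1 (reverse complement GCATGCGC), CCGGAAG for ETS factors such as GABP (CTTCCGG) and AAGATGGC for YY1 (GCCATCTT), each on both strands. NRF1 matches on opposite strands overlap in GCGCATGCGC, and a YY1 match can share AAG with an ETS match. NRF1 letters were found in 8 members (11.0%) and 3.65% of all genes, ETS letters in 12 (16.4%) and 11.2%, and YY1 letters in 2 (2.74%) and 1.86%. By complex, the NRF1 letters were in 3 of 32 genes of complex I, 0 of 5 of complex III, 1 of 13 of complex IV and 3 of 14 of complex V. A match is a description of letters and not of a bound site.

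Shown are 5 promoters, those of Cox6a1 and Atp5l, which hold both NRF1 and ETS letters, of Atp5h with ETS letters, and of Cox7a2l and Ndufv3, the members with the lowest adjusted p in islets, which hold none of the 3 motifs. Each runs 5′ to 3′ on the gene's strand, with matches in capitals. They lie at chr5:115348959-115349208 (minus strand) for Cox6a1, chr9:44920743-44920992 (minus) for Atp5l, chr11:115419920-115420169 (minus) for Atp5h, chr17:83514334-83514583 (minus) for Cox7a2l and chr17:31519865-31520114 (plus) for Ndufv3.
Cox6a1: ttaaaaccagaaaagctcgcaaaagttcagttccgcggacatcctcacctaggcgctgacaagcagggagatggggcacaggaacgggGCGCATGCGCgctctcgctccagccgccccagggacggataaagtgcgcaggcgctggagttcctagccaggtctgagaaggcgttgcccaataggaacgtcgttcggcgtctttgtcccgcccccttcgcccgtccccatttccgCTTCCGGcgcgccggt
Atp5l: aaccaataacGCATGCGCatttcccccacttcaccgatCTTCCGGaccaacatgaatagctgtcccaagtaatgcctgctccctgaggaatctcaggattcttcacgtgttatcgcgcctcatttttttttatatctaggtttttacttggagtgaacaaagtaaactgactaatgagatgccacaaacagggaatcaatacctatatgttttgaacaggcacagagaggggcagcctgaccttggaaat
Atp5h: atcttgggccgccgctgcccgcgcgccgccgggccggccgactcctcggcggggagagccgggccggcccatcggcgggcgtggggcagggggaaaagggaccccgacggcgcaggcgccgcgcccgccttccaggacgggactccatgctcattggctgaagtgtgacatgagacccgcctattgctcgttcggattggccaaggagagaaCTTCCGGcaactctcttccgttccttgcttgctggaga
Cox7a2l: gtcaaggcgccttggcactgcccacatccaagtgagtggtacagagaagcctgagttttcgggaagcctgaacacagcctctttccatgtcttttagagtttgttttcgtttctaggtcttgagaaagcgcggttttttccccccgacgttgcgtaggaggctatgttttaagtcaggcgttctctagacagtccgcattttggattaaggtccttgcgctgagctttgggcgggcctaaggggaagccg
Ndufv3: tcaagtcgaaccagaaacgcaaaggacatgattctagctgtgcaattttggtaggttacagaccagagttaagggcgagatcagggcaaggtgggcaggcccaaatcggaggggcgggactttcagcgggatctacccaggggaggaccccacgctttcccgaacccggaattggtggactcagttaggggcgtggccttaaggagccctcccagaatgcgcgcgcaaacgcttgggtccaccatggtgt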

How the data were processed

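Poly(A) RNA of islets and liver from 48 mice was measured in 96 libraries. The authors aligned reads to GRCm38.p5 with HISAT2 2.0.4 and Bowtie2 2.2.5 and deposited FPKM per gene from RSEM 1.1.12, with 2 decimals and without counts. The 24 group means, the 216 columns of the authors' own comparisons and the clustering columns of the table were not used. On log2(FPKM + 1), limma 3.58.1 in R 4.3.3 tested those genes that reached 1 FPKM in 4 or more libraries of a comparison (3 of 7 with 1 mouse left out), with the trend and robust options of its variance model. Benjamini-Hochberg adjustment ran over all genes tested, and a call asked for an adjusted p under 0.05 with no minimum fold. The code was tested on simulated data. Each week was fitted alone, and the mean and early-minus-late effects came from 1 fit per tissue with 12 groups. The tissue comparisons used a fit of both tissues. Whether libraries of a mouse go together was checked over 9936 genes, after group means were removed. The correlation was above 0.1 in 34 of 48 mice (median 0.156, from -0.0841 to 0.304), and the consensus correlation was 0.0610 for the effect difference and 0.0260 for the tissue difference, so a fit with the mouse as block was run as an alternative. Other alternatives were a pseudocount of 0.1, no filter, no trend or robust variances, a minimum absolute log2 fold change of 1, scaling by median ratios, islet FPKM divided by the share left without Ins1 and Ins2, every library brought to the same total without them (added after seeing the data), all 12 groups in 1 fit for single weeks, and leaving out each mouse. Isoform shares were compared by an exact two-sided permutation test in Python 3.11.15 with numpy 2.4.6 and pandas 2.3.3, and figures were drawn with matplotlib 3.10.9.

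Members and lists were chosen with earlier results of these data known. Gene identifiers were looked up in RefSeq, where 88 of 88 were found and 68 shared the start or end given in the table. Genes were named by rule in each tissue. They were the 12 called members with the lowest adjusted p in the mean effect, the 3 highest and 3 lowest mean effects, the isoform pairs, subunits fixed beforehand, namely Ndufs1, Ndufv1, Ndufs4, Ndufa4, Uqcrc1, Uqcrfs1, Cox4i1, Cox5a, Cox5b, Cox7b, Atp5a1, Atp5b and Atp5c1, the 3 most abundant members, and members whose effect differed between tissues or periods, of which at most 10 were taken by adjusted p. Among the genes this rule names, 1 is not reported here, though the totals count it. Genes named outside this rule were chosen after their values were seen. These are Ndufa1, Ndufa9, Ndufb5, Ndufc1, Ndufs5, Ndufv2, Atp5j, Atp5j2, Ndufaf1, Ndufaf2, Ndufaf3, Ndufaf5, Uqcrh, Uqcrb and Uqcrq, and in islets also Uqcrc2 and Ndufs7. The marker and pathway lists are those whose results the text prints.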

Additional observations from a re-analysis of the deposited data

Results flagged for a closer look

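In groups of 4 libraries, a library was singled out where its gap to the nearest other library exceeded the share of the group's range that Dixon's test asks for. Chance gives about 1 in 20 groups, and 9 of 156 groups examined had such a library, of which 5 were among 96 groups of complex sums. The liver library of HFD617 in week 24 was the highest of its group for the summed FPKM of complex I (4579), complex III (1395) and complex V (4734). The islet library of HFD213 in week 8 was the lowest for complex III (425), and that of CD101 in week 4 the highest for complex V (2162). In liver, Cox7a1 was lowest in HFD411 of week 16 (3.85 FPKM), Ndufaf2 lowest in CD203 of week 8 (12.2 FPKM), Ndufb3 highest in CD208 of week 8 (65.4 FPKM) and Ndufs1 highest in CD304 of week 12 (30.1 FPKM).

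The test of the difference itself found 18 members whose HFD effect differed between islets and liver, as log2 of islets minus liver. The effect was higher in islets for Cox7a2l (0.31), Ndufv3 (0.19), Ndufa12 (0.16), Ndufb11 (0.16), Ndufa4 (0.14), Ndufb5 (0.14), Atp5h (0.14), Ndufc2 (0.14), Ndufs7 (0.13) and Uqcrh (0.12). It was lower for Cox7a1 (-0.58), Ndufs1 (-0.30), Atp5s (-0.22), Ndufaf7 (-0.19), Ndufa10 (-0.18), Ndufb3 (-0.16), Uqcrc2 (-0.14) and Atp5a1 (-0.12). With islet FPKM divided by the share left without Ins1 and Ins2, all of these lower effects but that of Cox7a1 were no longer called, and those of Ndufa10, Ndufb3, Uqcrc2 and Atp5a1 turned above 0. With median ratios, and with every library at the same total without insulin, those of Ndufaf7, Ndufa10, Ndufb3, Uqcrc2 and Atp5a1 were lost. The calls of Ndufc2 and Ndufs7 held in only 26 and 27 of 48 fits that each left out 1 mouse. Between early and late weeks the islet effect differed for Ndufa4l2 (-0.36, early minus late), a call lost under all 3 of these scalings.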

How the results depend on the processing

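With a pseudocount of 0.1, 34 of 34 counts and medians were kept, medians within the spread of mice in a group and counts within a fixed fold. Of single calls, 113 of 114 kept their direction and an adjusted p under 0.05 by limma. The mouse as block in the tissue comparisons kept 4 of 4 counts (10 higher became 11, 8 lower stayed 8, and 8 and 75 in CD mice stayed). Where a value moved, the cause was not tested except where stated. Asking for a minimum absolute log2 fold change of 1 left 0 members in each islet and liver week that had calls, in the mean effects, in the early minus late effect and in the islets minus liver effect, and 2 higher and 53 lower in the tissue comparison of CD mice. Without the filter the counts were 0 in islet week 8, 2 in week 12 and 0 in week 20, 1 lower in the islet mean, and 3, 4 and 2 in liver weeks 8, 12 and 16. Without trend or robust variances, islet weeks 12 and 20 gave 0 and 1. All 12 groups in 1 fit gave 6 (1 higher and 5 lower, beside 1.06% and 6.61% of all genes), 22 (all higher, 5.41%), 10 (9 and 1, 4.16% and 5.54%) and 7 (all higher, 10.1%) in islet weeks 8, 12, 20 and 24 and 2 (all higher, 5.59%), 16 (15 and 1, 13.4% and 1.55%) and 5 (all higher, 8.71%) in liver weeks 8, 12 and 16.

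Median ratios gave 0, 7 and 1 members in islet weeks 8, 20 and 24, medians of 0.0278 in week 8 and -0.000962 in week 24, and 0 in the early minus late effect. In liver they gave 3 in week 8, 3 in week 12 (2 higher and 1 lower) with a median of 0.0497, and 6 higher and 12 lower in the mean effect. Islets minus liver had 27 higher and 3 lower, and CD mice 5 higher. The mean liver effect turned to -0.00657 for Cox7a2, to -0.00266 for Ndufa9 and to -0.0164 for Ndufv2. Islet FPKM divided by the share left without Ins1 and Ins2 gave 0, 81, 77 and 0 members in islet weeks 8, 12, 16 and 20, medians of 0.19, 0.0276, 0.66 and 0.41 in weeks 4, 8, 12 and 16, 81 higher and 1 lower in the mean effect, and 0 in the early minus late effect. Islets minus liver had 45 higher and 1 lower, and CD mice 54 higher and 23 lower. Islets minus liver turned to 0.0706 for Atp5a1, 0.00528 for Ndufa10, 0.0230 for Ndufb3 and 0.0467 for Uqcrc2. This scaling moves with the insulin share, which differed between the diets without overlap in weeks 12 and 16, and it keeps the unequal FPKM totals of libraries. Chosen after seeing the data, equal totals without Ins1 and Ins2 gave 72, 57 and 1 members in islet weeks 12, 16 and 20, medians of 0.126, 0.459, 0.253 and 0.0524 in weeks 4, 12, 16 and 20, 73 higher and 1 lower in the mean effect, 0 in the early minus late effect, 13 higher and 3 lower in islets minus liver, and 20 higher and 56 lower in CD mice. Also chosen then, the mean islet effect without week 8 had 56 higher and 1 lower, beside 20.3% and 17.0% of all genes, and the mean liver effect without week 4 had 28 higher and 1 lower, beside 32.9% and 7.35%, a share near that of all genes.

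With each mouse left out in turn, the members called ranged in islets from 0 to 10 in week 8, 0 to 8 in week 12, 1 to 4 in week 16, 0 to 24 in week 20 and 1 to 3 in week 24. In liver they ranged from 0 to 5 in week 8, 0 to 23 in week 12, 0 to 13 in week 16 and 0 to 1 in week 24. Mean-effect counts ranged from 36 to 46 higher and 1 to 2 lower in islets and from 19 to 25 higher and 0 to 1 lower in liver, and early minus late in islets from 1 to 3. The week 4 member median minus that of all genes, added after seeing the data, ranged in islets from 0.07 to 0.16. Of single calls tried with a mouse left out, 3921 of 4272 held, 351 missed the threshold and 0 reversed. These fits pool calls of mean and difference effects, tried 48 times each, with calls of single weeks, tried 8 times each. The calls of single weeks held far less often. Those of Cox7a2l in week 16 and Ndufa4l2 in week 24, both in islets, held in 8 of 8 fits, and each other in at most 5 of 8. Since the table holds no counts, the sampling error of scarce transcripts such as Cox7a1 could not be given.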
